A study of Mus musculus with 8 samples.

Results

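The 10 genes described here make, break down or read cyclic AMP (cAMP) in the oocyte. They are the receptors Gpr3 and Gpr12, the adenylyl cyclases Adcy3 and Adcy9, the phosphodiesterase Pde3a, and the subunits of the cAMP-dependent protein kinase (PKA) Prkar1a, Prkar2a, Prkar2b, Prkaca and Prkacb. They were taken by name, after matching gene identifiers to symbols, and are 10 of the 55385 genes of the count table. All 10 passed the filter on low counts, as did 14929 genes in all. Polyadenylated RNA was measured in mouse oocytes grown in culture from embryonic stem cells of a C57BL/6 x 129/SvJ background that carried the reporters Blimp1-mVenus and Stella-ECFP. Oocytes came from 1 sex-converted XX line or 1 native XX line, and each line at each stage had 2 libraries, 8 in all, which the labels call biological duplicates. P-values measure the spread between these duplicates, and line and clone cannot be told apart.

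In all groups, 5000 germ cell-like cells had been joined with 75000 somatic cells of female gonads from embryonic day 12.5, kept for 21 days in differentiation culture and 11 days in growth culture with follicle-stimulating hormone (FSH). Germinal vesicle (GV) oocytes, which rest in prophase of the first meiotic division, were taken on that day. Metaphase II (MII) oocytes were taken after 16 h of maturation with FSH at 0.1 IU/ml, epidermal growth factor (EGF) at 4 ng/ml and human chorionic gonadotropin at 1.2 IU/ml, and were picked by their polar body. Pools held 31 to 158 GV or 35 to 58 MII oocytes, chosen for a visible Stella-ECFP signal. The handling itself touched the pathway. Only the GV groups were stripped of cumulus cells in 0.2 mM dibutyryl-cAMP, a cAMP analog that enters cells, and 0.1 mM IBMX, an inhibitor of phosphodiesterases, with enzyme steps of 20 min and 15 min. MII oocytes were stripped with hyaluronidase, so stage and this treatment cannot be told apart.

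As background, a grown oocyte stays in prophase while its cAMP is high. The receptor GPR3 keeps the stimulatory G protein active, adenylyl cyclase then makes cAMP, and cyclic GMP from the surrounding cells holds back the phosphodiesterase PDE3A. PKA is held inactive by regulatory subunits until cAMP binds them and frees the catalytic subunits, which keep the kinase CDK1 off through WEE2 and the CDC25 phosphatases. When cyclic GMP falls after the ovulatory signal, PDE3A breaks cAMP down and meiosis resumes. Transcription is silent through maturation, and stored mRNAs change by decay and by loss or gain of their poly(A) tail. These libraries hold polyadenylated RNA, so the amount of an mRNA and the length of its tail cannot be told apart.

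The ends of the annotated transcripts are shown because tail length is set there. Each line gives the last 30 bases of the longest principal transcript of GENCODE M21 on GRCm38, 5′ to 3′ and with T for U. Capitals mark the polyadenylation signals AATAAA or ATTAAA and the motifs TTTTAT or TTTTAAT, which are known as cytoplasmic polyadenylation elements, searched on the sense strand only.
Gpr3, chr4:133209340-133209369, minus strand: actcAATAAAaaaaaaatggtttttttgga
Adcy3, chr12:4213495-4213524, plus strand: actgTTTTATTAAAagctttactcaacttg
Prkar1a, chr11:109669627-109669656, plus strand: AATAAAaaagatgaaataatttaaattctt
Prkar2a, chr9:108750407-108750436, plus strand: tgactAATAAAggctgacaaatcatgtctg
Prkar2b, chr12:31958476-31958505, minus strand: ccttatAATAAAgcacacTTTTATAATAAA
Prkaca, chr8:83996414-83996443, plus strand: attaccAATAAAgttttgttttaaAATAAA
Prkacb, chr3:146729574-146729603, minus strand: gcaaaATTAAAgtatcttcaaaggataaaa
A signal lay in the last 30 bases of 8 of the 10 genes, beside 69.0% of 12296 genes measured the same way, and neither Adcy9 nor Pde3a had one there. In Adcy3 the TTTTAT overlaps the ATTAAA signal, and in Prkar2b it adjoins the last AATAAA. In the last 100 bases, a polyadenylation element was found in Adcy3, Prkar2b and Prkacb, beginning 26, 12 and 49 bases before the end, and 19.9% of 11813 genes had one. Which 3′ end the oocytes used was not measured.

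For the gene starts, RefSeq promoters on GRCm38.p6 (250 bases before to 50 after a start) were searched on both strands for TGACGTCA, the full cAMP response element. Of the 9 genes with a listed promoter, only Prkar1a had it, in 2 of its 6 listed promoters, as 2.03% of 27025 genes had it in any listed promoter. It lay 49 bases before a start site. The window is shown with the motif in capitals.
Prkar1a, chr11:109650889-109650918, plus strand: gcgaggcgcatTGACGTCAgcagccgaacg
Pde3a had no entry.

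Levels are given as CPM, which are reads scaled to a common library total and by TMM factors. These factors level a trimmed mean of gene differences between libraries. The median gene was still at a log2 fold change of -0.307 in the native and -0.345 in the sex-converted line from GV to MII. A difference is thus relative to other mRNAs. Libraries held 10306471 to 14999003 reads. All 12 oocyte markers had reads in all 8 libraries, with summed levels of 13700 to 21680 CPM. The granulosa and cumulus list summed to 82.8 to 103 CPM at GV and 154 to 182 CPM at MII, mostly from Esr2, Cyp19a1 and Kitl. Its receptor Fshr had 7 to 24 reads at GV and 0 at MII, Lhcgr had 0 to 3 reads and Amh 0 to 1 in any library. The list of stroma and theca markers summed to 0.877 to 1.55 CPM at GV and 3.23 to 19.2 CPM at MII, highest in native MII replicate 1, where Vim had 175 reads and Col1a1 6. The part of these cells in the results was not tested, and fewer cells of a type and less RNA per cell cannot be told apart.

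From GV to MII on the TMM scale, Pde3a and the PKA subunit genes were called higher, while Gpr3, Gpr12, Adcy3 and Adcy9 were not. This split is by call and not by size. Adcy3, not called, had log2 fold changes of 0.70 in the native and 0.83 in the sex-converted line. Those of Prkar1a, which was called, were 0.78 and 0.92. In each line 6 of the 10 genes rose (Pde3a and all 5 PKA subunits), 1 fell (Adcy9) and 3 passed in neither direction (Gpr3, Gpr12 and Adcy3), by edgeR's quasi-likelihood test at an adjusted p under 0.05. Of all genes tested, 29.6% were called higher and 35.7% lower at MII in the native line, and 29.3% higher and 36.2% lower in the sex-converted line. The median log2 fold change of the 10 was 0.91 in the native and 0.98 in the sex-converted line, beside -0.307 and -0.345 over all genes. With library totals alone it was -0.0037 and 0.041, beside -1.22 and -1.28. The 10 were chosen with earlier results of these data known, so these contrasts are descriptions only. The GV and MII libraries did not overlap for 8 of the 10 genes in the native and 9 in the sex-converted line, beside 83.5% and 84.8% of all genes tested. Scaled by library totals alone, which moved the median of all genes down by a further 0.908 and 0.933, 4 of the 10 rose and 2 fell in the native line and 3 rose and 2 fell in the sex-converted line. Under that scaling the signs of Prkar1a and Adcy3 in both lines and of Pde3a in the sex-converted line turned.

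**Figure D1:**
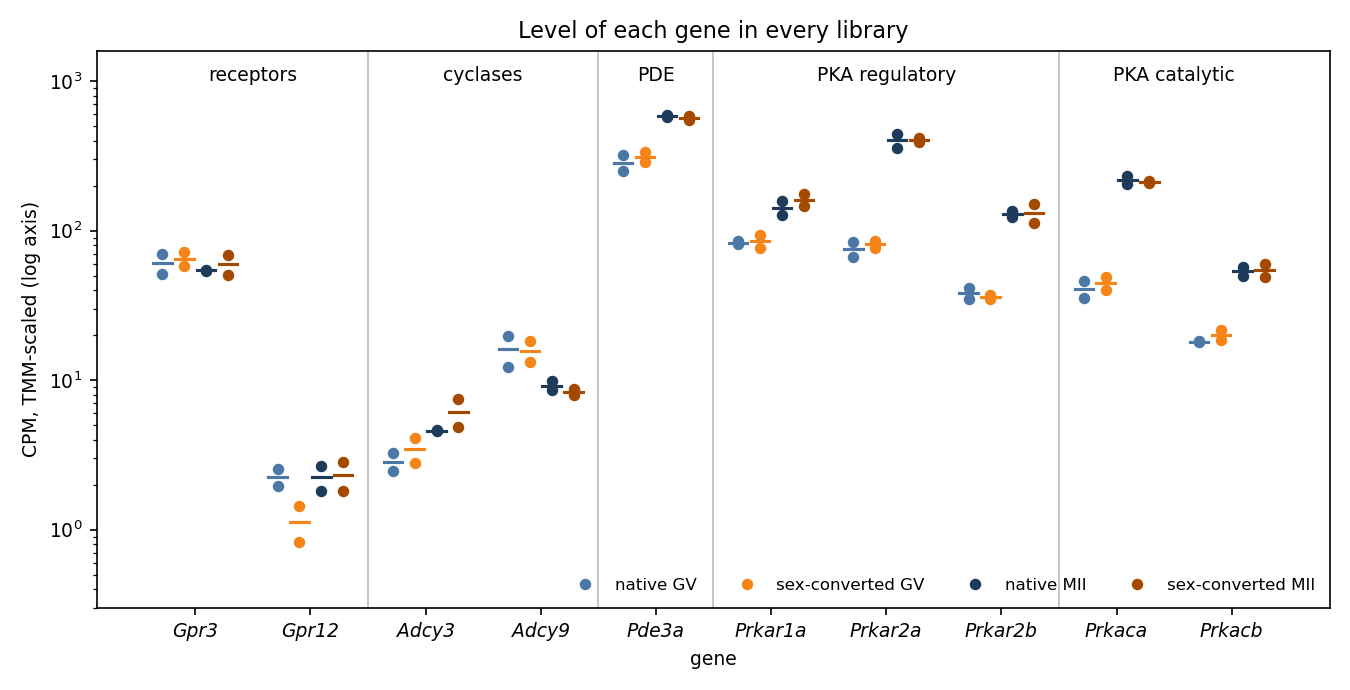
Level of each of the 10 genes in each library, in CPM on a log axis, with native and sex-converted libraries at GV and MII as separate points and a line at each group mean. Prkaca sits between 35.6 and 49.1 CPM at GV and between 204 and 234 CPM at MII, while the GV and MII points of Gpr3 overlap.

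Gpr3 encodes the constitutively active receptor that sustains oocyte cAMP. It was at 51.5 and 69.7 CPM in the native and 71.7 and 57.6 CPM in the sex-converted GV libraries, and at 54.0 and 55.0 CPM in the native and 69.2 and 50.4 CPM in the sex-converted MII libraries. In each line the GV and MII libraries overlapped. The log2 fold change from GV to MII was -0.15 in the native line (95% interval -0.69 to 0.38, adjusted p = 0.599, edgeR) and -0.11 in the sex-converted line (-0.65 to 0.42, adjusted p = 0.697, edgeR). Scaled by library totals alone these became -1.07 (adjusted p = 0.00377, edgeR) and -1.05 (adjusted p = 0.00404, edgeR), beside -1.22 and -1.28 for the median of all genes. In reads, Gpr3 had 924 to 1203 at GV and 475 to 632 at MII. Gpr3 shares 204 bases of exon with Cd164l2 on the opposite strand, which had 1318 to 3916 reads. The labels do not say whether counting used the strand, so reads of such a pair may not be told apart.

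Gpr12 encodes a relative of GPR3 that also raises cAMP. It had 17 to 36 reads in the GV and 19 to 26 in the MII libraries. It was at 1.95 and 2.53 CPM in the native and 1.43 and 0.828 CPM in the sex-converted GV libraries. In the MII libraries it was at 1.81 and 2.66 CPM in the native and 2.85 and 1.81 CPM in the sex-converted libraries. The sex-converted GV libraries were the lowest. The log2 fold change was -0.0049 in the native line (95% interval -1.17 to 1.16) and 1.04 in the sex-converted line (-0.15 to 2.24), and neither passed (adjusted p = 0.994 and 0.112, edgeR). Gpr6, the other close relative, had 2 reads in 1 library and 0 in the others.

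The cyclases make cAMP from ATP. Adcy3, the cyclase most often tied to the mouse oocyte, was at 2.45 and 3.24 CPM in the native and 4.11 and 2.78 CPM in the sex-converted GV libraries. In MII oocytes it was at 4.58 and 4.63 CPM in the native and 7.44 and 4.85 CPM in the sex-converted libraries. All 4 MII libraries lay above all 4 GV libraries, yet the log2 fold changes of 0.70 (95% interval -0.21 to 1.61, adjusted p = 0.157, edgeR) and 0.83 (-0.051 to 1.72, adjusted p = 0.0881, edgeR) did not pass, with 40 to 69 reads a library. Scaled by library totals alone they were -0.21 and -0.10. Adcy3 shares 1380 bases of exon with Cenpo on the opposite strand, a centromere protein gene with 520 to 2752 reads. With unstranded counting, reads from these bases could be left out or given to the other gene, depending on settings that were not stated.

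Adcy9 encodes a cyclase that forskolin activates poorly. It was at 12.3 and 19.9 CPM in the native and 18.3 and 13.3 CPM in the sex-converted GV libraries, and at 8.59 and 9.84 CPM in the native and 8.76 and 7.99 CPM in the sex-converted MII libraries. Every MII library lay below every GV library. The log2 fold change was -0.80 in the native line (SE 0.327, adjusted p = 0.0490, edgeR) and -0.91 in the sex-converted line (SE 0.328, adjusted p = 0.0291, edgeR). Over all genes a fall of this kind was frequent, as given above. The native call was lost without any 1 of 7 of the 8 libraries, the smallest value being -0.42 (adjusted p = 0.364, edgeR) without native GV replicate 2, and also with DESeq2 (adjusted p = 0.0641), RLE factors (adjusted p = 0.0593, edgeR) and only the groups compared (adjusted p = 0.0799, edgeR). With library totals alone the values were -1.72 and -1.86. The sex-converted call was lost without sex-converted GV replicate 1 (-0.66, adjusted p = 0.179, edgeR), MII replicate 1 (adjusted p = 0.0821, edgeR) or MII replicate 2 (adjusted p = 0.131, edgeR).

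Pde3a encodes the phosphodiesterase that breaks down oocyte cAMP and is inhibited by cyclic GMP. It was at 252 and 319 CPM in the native and 290 and 335 CPM in the sex-converted GV libraries. At MII it was at 575 and 598 CPM in the native and 587 and 553 CPM in the sex-converted libraries. It rose 2.05-fold in the native line (log2 1.04, SE 0.174, adjusted p = 0.000321, edgeR) and 1.83-fold in the sex-converted line (log2 0.87, SE 0.173, adjusted p = 0.00107, edgeR), but scaled by library totals alone it was 0.12 (adjusted p = 0.546, edgeR) in the native line and turned to -0.064 (adjusted p = 0.755, edgeR) in the sex-converted line. Every MII library lay above every GV library in CPM, while its reads, 4532 to 6869 at GV and 5164 to 6025 at MII, overlapped. An antisense gene in Pde3a, Gm28523, shares 741 exon bases and had 1 to 45 reads.

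**Figure D2:**
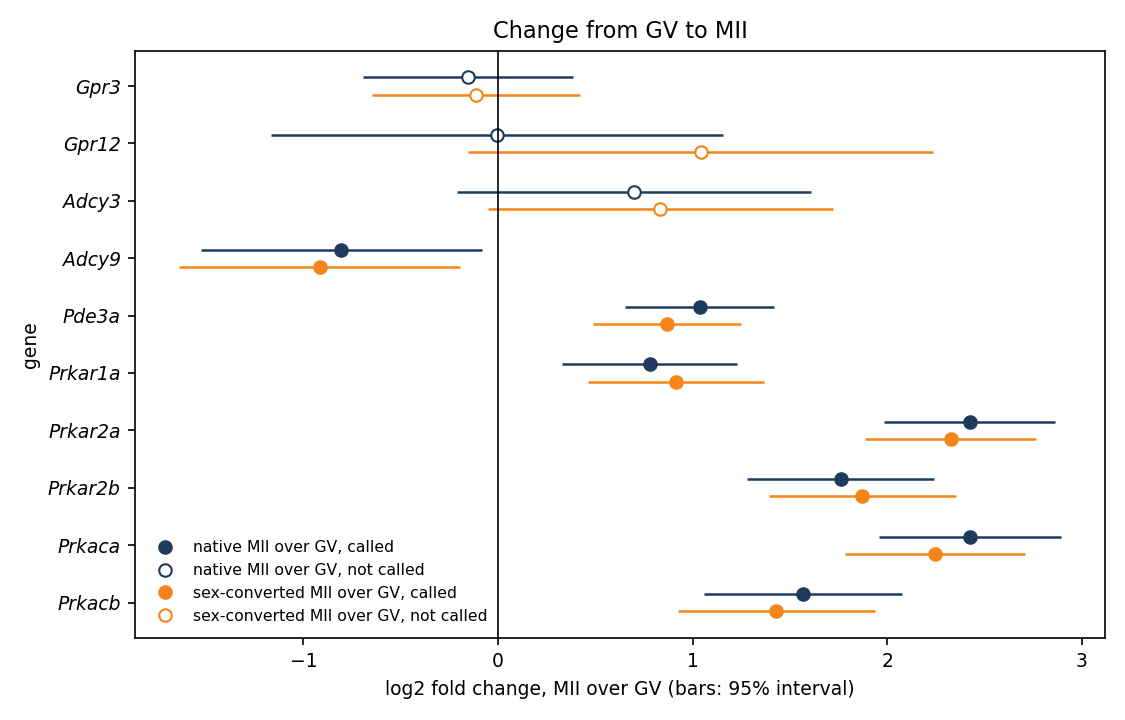
Log2 fold change from GV to MII of each gene in the native and the sex-converted line, with 95% intervals, on the TMM scale. The intervals of Pde3a and the 5 PKA subunits lie above 0 and those of Adcy9 below it, and those of Gpr3, Gpr12 and Adcy3 cross 0; scaled by library totals alone, Prkar1a in both lines, Pde3a in the sex-converted line and Adcy3 in both lines change sign.

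PKA is a tetramer of a pair of regulatory and a pair of catalytic subunits, and the regulatory subunit gives the holoenzyme its type. Prkar1a, the type I regulatory subunit, was at 81.2 and 85.3 CPM in the native and 93.5 and 76.6 CPM in the sex-converted GV libraries. At MII it was at 127 and 159 CPM in the native and 175 and 146 CPM in the sex-converted libraries. It rose 1.72-fold in the native line (log2 0.78, SE 0.205, adjusted p = 0.00603, edgeR) and 1.89-fold in the sex-converted line (log2 0.92, SE 0.205, adjusted p = 0.00226, edgeR), but with library totals alone it turned to -0.13 and -0.023 on the log2 scale. Without native MII replicate 2 the native value was 0.58 (adjusted p = 0.0801, edgeR).

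Prkar2a, the widely expressed type II regulatory subunit, rose far more. It was at 66.3 and 83.9 CPM in the native and 76.1 and 85.8 CPM in the sex-converted GV libraries, and at 360 and 446 CPM in the native and 417 and 395 CPM in the sex-converted MII libraries. Every MII library lay above every GV library. The rise was 5.37-fold in the native (log2 2.42, SE 0.200, adjusted p = 2.14e-06, edgeR) and 5.02-fold in the sex-converted line (log2 2.33, SE 0.199, adjusted p = 2.80e-06, edgeR). Scaled by library totals alone the values were still 1.51 and 1.39.

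Prkar2b, the type II subunit best known from brain and fat, was at 41.3 and 34.9 CPM in the native and 34.8 and 37.2 CPM in the sex-converted GV libraries. At MII it was at 123 and 135 CPM in the native and 113 and 151 CPM in the sex-converted libraries. It rose 3.39-fold in the native (log2 1.76, SE 0.218, adjusted p = 3.51e-05, edgeR) and 3.66-fold in the sex-converted line (log2 1.87, SE 0.219, adjusted p = 2.33e-05, edgeR), and by 0.85 and 0.94 on the log2 scale with library totals alone. Granulosa cells also express Prkar2b, and the summed granulosa markers were higher at MII than at GV in CPM, as given above. In reads their sums overlapped, at 1425 to 1755 at GV and 1328 to 1905 at MII. Of 9 such markers tested, 3 were called higher, 1 lower and 5 in neither direction in each line. The part of granulosa cells in the Prkar2b result was not tested.

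Prkaca, the main catalytic subunit, was at 35.6 and 45.9 CPM in the native and 49.1 and 40.1 CPM in the sex-converted GV libraries. At MII it was at 234 and 204 CPM in the native and 208 and 215 CPM in the sex-converted libraries. It rose 5.38-fold in the native (log2 2.43, SE 0.211, adjusted p = 3.11e-06, edgeR) and 4.75-fold in the sex-converted line (log2 2.25, SE 0.210, adjusted p = 4.98e-06, edgeR). With library totals alone the values were 1.51 and 1.31. Prkacb, the second catalytic subunit gene, was at 17.9 and 18.4 CPM in the native and 18.7 and 21.8 CPM in the sex-converted GV libraries. In MII oocytes it was at 49.8 and 57.6 CPM in the native and 48.8 and 60.2 CPM in the sex-converted libraries. Its rise was 2.96-fold in the native (log2 1.57, SE 0.232, adjusted p = 0.000129, edgeR) and 2.70-fold in the sex-converted line (log2 1.43, SE 0.230, adjusted p = 0.000234, edgeR). With library totals alone the sex-converted value was 0.50 and no longer passed (adjusted p = 0.0728, edgeR).

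Levels of different genes were compared per length, as CPM per kilobase of annotated exon. At GV the median over 4 libraries was 23.9 CPM per kilobase for Pde3a, 23.3 for Gpr3, 19.3 for Prkar1a and 17.3 for Prkaca, and neighbours in this order overlapped. Prkar2a at 12.5 and Prkar2b at 9.87 CPM per kilobase followed, also overlapping each other. Adcy9 at 3.04 and Prkacb at 2.11 overlapped further down, and Gpr12 at 0.673 and Adcy3 at 0.481 CPM per kilobase were lowest and overlapped. At MII the order was led by Prkaca at 85.1 CPM per kilobase, then Prkar2a at 63.7 and Pde3a at 45.6, with no overlap between them. Prkar2b at 35.4 and Prkar1a at 35.3 CPM per kilobase overlapped, and Gpr3 at 19.9, Prkacb at 6.13 and Adcy9 at 1.67 were each apart from their neighbours. Gpr12 at 0.891 and Adcy3 at 0.759 CPM per kilobase overlapped again. These orders rest on the annotated exon lengths, and in CPM without length Pde3a led at both stages, with medians of 304 CPM at GV and 581 CPM at MII. Among 12552 protein-coding genes tested, Prkaca stood at the percentiles 77.5 to 83.2 at GV and 94.1 to 94.6 at MII. Adcy9, called lower, overlapped in rank, at 43.2 to 51.6 at GV and 44.6 to 49.1 at MII. Adcy3, not called, stood at 16.5 to 21.7 at GV and 31.4 to 40.6 at MII. Rank can move without level, however. In the native line Gpr12 averaged 0.892 CPM per kilobase in GV oocytes and 0.891 in MII oocytes. Its percentile there was nonetheless no higher than 28.5 in any GV library and no lower than 31.1 in any MII library. A shift in rank, or its absence, thus does not by itself tell how a level changed.

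Ratios of genes within a library do not depend on how libraries are scaled. Per length, Prkar1a made up 42.9% to 50.2% of the mRNA of the 3 regulatory subunits at GV and 24.6% to 29.6% at MII. Prkar2a went the other way, from 25.7% to 32.5% at GV to 45.2% to 48.6% at MII. The Prkar2b share overlapped between stages, at 22.1% to 27.9% and 22.6% to 30.1%. At GV the Prkar2a level was 0.551 to 0.759 of that of Prkar1a, and at MII it was 1.61 to 1.92 times that level. Without length correction, Prkar2a was at 0.814 to 1.12 of the Prkar1a reads at GV and 2.38 to 2.84 times at MII, so which of the pair was the more abundant at GV depends on the length used.

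**Figure D3:**
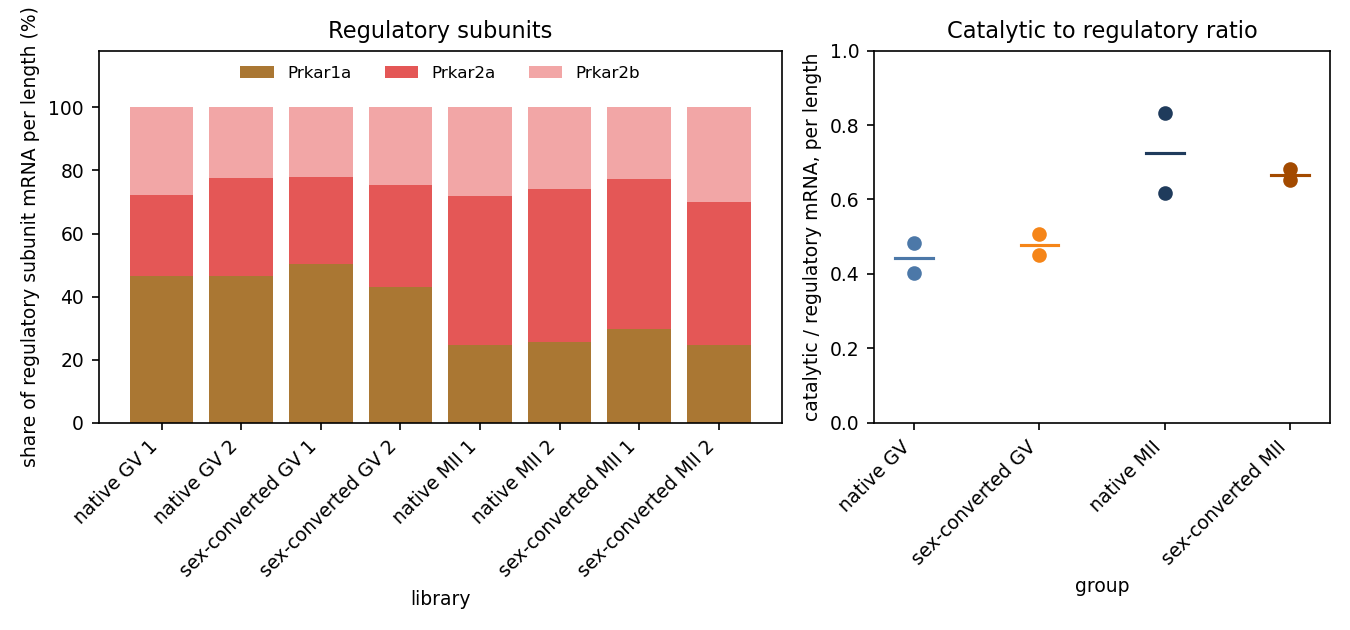
Left, share of Prkar1a, Prkar2a and Prkar2b in the regulatory subunit mRNA of each library, as stacked bars in percent of their summed CPM per kilobase; right, ratio of catalytic to regulatory mRNA per length in each library (points) with the group mean (line). The Prkar1a share lies between 42.9% and 50.2% at GV and between 24.6% and 29.6% at MII, and that of Prkar2a between 25.7% and 32.5% at GV and between 45.2% and 48.6% at MII, and the ratio between 0.403 and 0.507 at GV and 0.617 and 0.833 at MII.

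Prkaca was 86.7% to 90.3% of catalytic subunit mRNA at GV and 92.6% to 94.3% at MII. The ratio of catalytic to regulatory mRNA was 0.403 to 0.507 at GV and 0.617 to 0.833 at MII, the highest in native MII replicate 1. Against the receptor, Prkaca was at 0.724 to 0.765 of the Gpr3 level at GV and at 3.31 to 4.76 times that level at MII. Pde3a was at 0.867 to 1.25 times the Gpr3 level at GV and at 1.82 to 2.36 times at MII. Without length correction the median Prkaca share was 69.0% at GV (64.8% to 72.5%) and 79.6% at MII (at most 82.4%), and Pde3a was at 4.04 to 5.81 times the Gpr3 reads at GV and 8.49 to 11.0 times at MII. The catalytic to regulatory ratio was then 0.283 to 0.331 at GV and 0.354 to 0.465 at MII, so the stages lay close. The sizes thus depend on the length used, while the stages did not overlap in any of these 4 ratios with or without it. Most single genes also did not overlap between stages, as given above. A ratio shows unequal change and does not tell which gene moved, and mRNA levels do not give subunit protein.

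The lines were compared at each stage because the sex-converted cells had been derived from male cells. None of the 10 genes passed at GV or at MII, and none passed for the line by stage interaction, beside 0.0134%, 0.0134% and 0.0% of all genes called in these 3 comparisons. By DESeq2 also 0 of the 10 were called. At an unadjusted p under 0.05 the count was 0 of 10 in each, beside 2.14%, 3.68% and 2.2% of all genes, and the smallest unadjusted p were 0.0892 (Gpr12 at GV), 0.333 (Adcy3 at MII) and 0.194 (Gpr12 in the interaction), by edgeR. Across the 10 genes the log2 difference of sex-converted over native ran from -0.99 (Gpr12) to 0.28 (Adcy3) at GV and from -0.14 (Adcy9) to 0.41 (Adcy3) at MII. For the more abundant genes the intervals were narrower than for Gpr12. They still reached 0.58 for Prkaca and 0.67 for Gpr3 on the log2 scale, so equal levels are not shown. For Prkaca it was 0.13 at GV (95% interval -0.32 to 0.58) and -0.049 at MII (-0.49 to 0.39), and for Pde3a 0.13 (-0.25 to 0.51) and -0.040 (-0.42 to 0.34). For Gpr3 it was 0.094 (-0.44 to 0.63) and 0.13 (-0.41 to 0.67). For Gpr12 it was -0.99 (-2.16 to 0.18) at GV, where the libraries of the lines did not overlap, so a sizeable difference is not bounded at this depth. The GV libraries of the lines also did not overlap for Prkacb (0.16, -0.34 to 0.66), nor the MII libraries for Adcy3 (0.41, -0.48 to 1.31). That makes 2 of the 10 genes at GV and 1 at MII, beside 23.5% and 31.0% of all genes tested, so neither count stands out.

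The wider cAMP pathway was described with 133 genes in 9 lists, of which 108 passed the filter. In the native line 46 rose, 30 fell and 32 passed in neither direction, and in the sex-converted line 43 rose, 30 fell and 35 did not pass. Of all genes tested, 29.6% were called higher and 35.7% lower in the native line, and 29.3% and 36.2% in the sex-converted line. The median log2 fold changes of the 108 were 0.54 and 0.29, beside -0.307 and -0.345 over all genes. With library totals alone the medians of the 108 turned to -0.37 and -0.65, beside -1.22 and -1.28. The lists were chosen with earlier results known, so these are descriptions of the 108 only. Scaled by library totals alone, 18 rose and 45 fell in the native and 17 rose and 44 fell in the sex-converted line, so the balance of the lists depends on the scaling as that of all genes does (45.3% of native calls higher with TMM and 24.6% with totals). None of the 108 passed between the lines at either stage or in the interaction. Values of single genes below are on the TMM scale unless stated. Library totals alone moved the log2 fold changes of all genes by a median of -0.908 and -0.933. Missing calls below, as for Gnas, Pkig and Creb1, thus also hold on the TMM scale only. Most genes named below come from those with the largest called changes in the native line, but not every such gene is named. Left out were, among others, Akap8l (native log2 fold change -4.33), Cdc25c (-4.27) and Akt1 (2.28). The named genes are thus not always the extremes of their list. Gnas, Pkig and Creb1 were named for their role.

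Among 21 receptor and G protein genes, 11 rose and 4 fell in the native and 10 rose and 4 fell in the sex-converted line, or 5 up and 8 down and 6 up and 8 down with library totals alone. Gnai1 and Gnai3, alpha subunits of the inhibitory G proteins, were among the rises. Gnai3 was at 130 ± 4.58 CPM in native GV and 639 ± 37.0 CPM in native MII oocytes (SD, n = 2 each), a log2 fold change of 2.30 (SE 0.163), and 2.24 in the sex-converted line. Gnai1 changed by 3.22 and 3.19. Gnas, the stimulatory alpha subunit that GPR3 acts through, had log2 fold changes of 0.083 (95% interval -0.63 to 0.80) and 0.055 (-0.66 to 0.77) and did not pass. Rgs3, which speeds G protein shut-off, fell, with log2 fold changes of -2.90 and -3.30. Arrb2, a beta-arrestin that removes receptors from the surface, fell, with -2.60 and -2.55.

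Of 6 other cyclase genes tested, 2 rose and 1 fell in the native and 1 rose and 2 fell in the sex-converted line, or 0 up and 4 down and 0 up and 3 down with library totals alone. Adcy5 fell, with log2 fold changes of -1.31 and -1.20. Adcy8, a calcium-stimulated cyclase, was at 11.8 ± 2.17 CPM in native GV and 21.4 ± 0.894 CPM in native MII oocytes (SD, n = 2 each), a log2 fold change of 0.85, and 0.72 in the sex-converted line; it turned to -0.061 and -0.22 with library totals alone. The Adcy8 call was lost without native GV replicate 1 (0.70) or MII replicate 2 (0.78) in the native line and without any 1 of the 4 libraries of the sex-converted line (0.66 to 0.79).

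Of 16 other phosphodiesterase genes, 3 rose and 6 fell in the native and 5 rose and 6 fell in the sex-converted line, or 2 up and 7 down and 2 up and 8 down with library totals alone. Pde3b, the closest relative of Pde3a, was at 37.0 ± 5.74 CPM in native GV and 449 ± 3.19 CPM in native MII oocytes (SD, n = 2 each). Its log2 fold changes were 3.60 (SE 0.211) and 3.50 (SE 0.210), above the 1.04 and 0.87 of Pde3a. Pde8a, a phosphodiesterase that IBMX does not block, changed by 3.33 and 3.05. Pde1b, which calcium and calmodulin activate, fell, with -3.14 and -3.03. Pde6d, a carrier of prenylated proteins despite its name, fell, with -3.79 and -3.23, and the latter was -3.97 without sex-converted MII replicate 1.

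Of 5 further genes of PKA and other cAMP readers tested, 1 rose and 1 fell in each line, or 1 up and 3 down and 1 up and 2 down with library totals alone. The rise was Prkx, a related kinase that regulatory subunits also bind, at 9.51 ± 2.70 CPM in native GV and 50.4 ± 3.61 CPM in native MII oocytes (SD, n = 2 each), with log2 fold changes of 2.40 and 2.51. The PKA inhibitor gene Pkig had values of 0.079 (95% interval -0.54 to 0.70) and -0.13 (-0.75 to 0.50). Of 16 A-kinase anchoring proteins, which place PKA in the cell, 8 rose and 6 fell in the native and 9 rose and 5 fell in the sex-converted line, or 2 up and 6 down in each with library totals alone. Akap11 changed by 1.77 and 1.70 and Wasf1 by 1.85 and 1.84. Akap1, which tethers PKA to mitochondria, fell from 452 ± 103 CPM in native GV to 155 ± 15.3 CPM in native MII oocytes (SD, n = 2 each), with log2 fold changes of -1.54 and -1.71. Akap8, a nuclear anchor, fell, with -2.28 and -2.57.

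**Figure D4:**
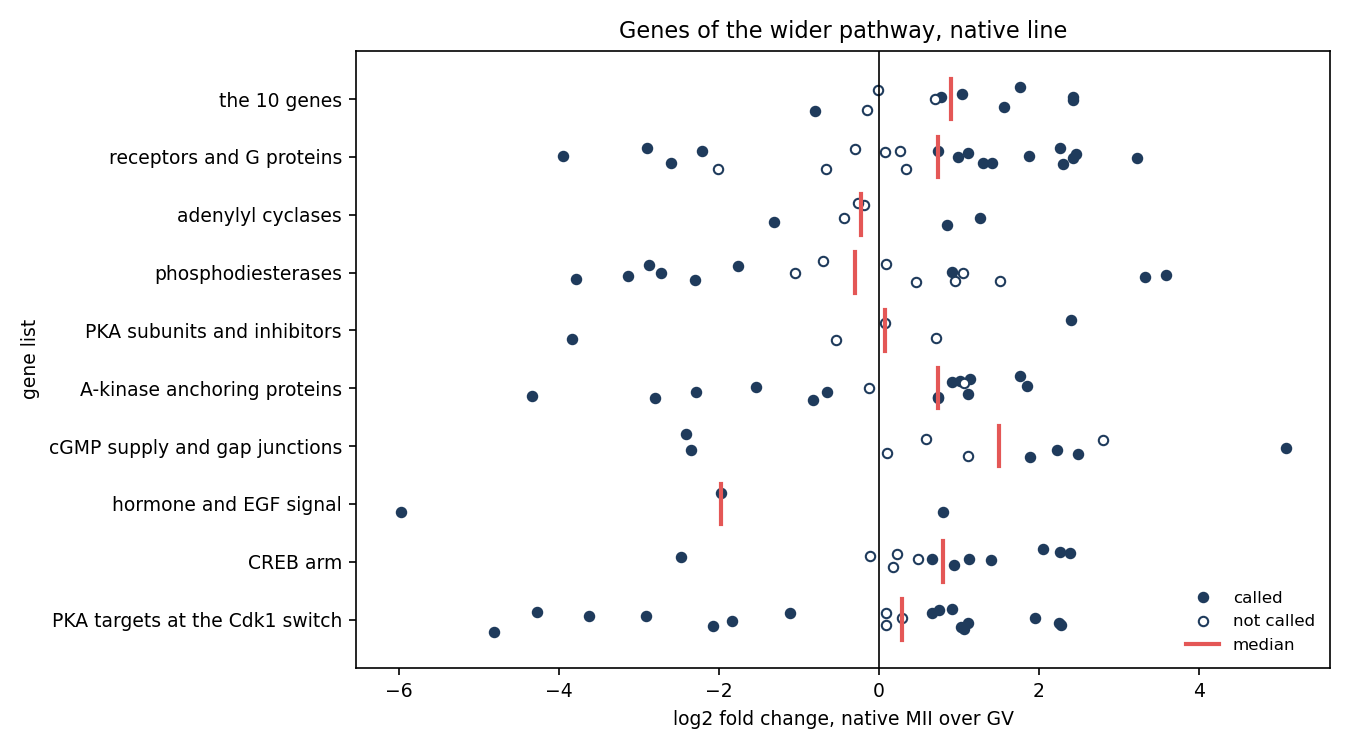
Log2 fold change from GV to MII in the native line of the 10 genes and of each tested gene of the wider lists, on the TMM scale, with filled points for called genes, open points for the others and a line at each list's median. Points of each list lie on both sides of 0, as among the phosphodiesterases with Pde1b at -3.14 and Pde3b at 3.60; scaled by library totals alone the median gene shifts down by a further 0.908.

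Cyclic GMP reaches the oocyte through gap junctions, and of 10 genes of its supply and of junctions 4 rose and 2 fell in the native and 3 rose and 2 fell in the sex-converted line, or 2 up and 3 down and 0 up and 3 down with library totals alone. Gja4, the connexin of the oocyte's own junctions, fell from 408 ± 136 CPM in native GV to 76.4 ± 6.53 CPM in native MII oocytes (SD, n = 2 each), with log2 fold changes of -2.42 and -2.78. Gja1, the connexin of cumulus cells, had 470 reads in native MII replicate 1 and 5 to 90 in the other libraries. Its log2 fold changes were 5.09, or 3.11 without that library, and 2.96. The sex-converted call did not hold when sex-converted MII replicate 1 was left out (1.46, adjusted p = 0.263, edgeR), without sex-converted GV replicate 1 (2.33, adjusted p = 0.0839, edgeR) and with library totals alone (2.04, adjusted p = 0.0868, edgeR). It was 4.29 without sex-converted GV replicate 2 and 3.69 without sex-converted MII replicate 2, and the native value was 5.86 without native MII replicate 2. Vim was also highest in native MII replicate 1 and next in sex-converted MII replicate 1, at 175 and 67 reads, and the part of somatic cells in the Gja1 result was not tested. Of the hormone and EGF genes, 3 were tested, and Fshr fell from the few reads given above to 0. Egfr fell, with -1.98 and -1.81, and the latter was -1.18 without sex-converted GV replicate 2. Adam17, which sheds EGF-like ligands, was at 0.80 and 0.81 and turned to -0.11 and -0.13 with library totals alone.

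Of 12 genes of the CREB arm, through which PKA acts on transcription, 7 rose and 1 fell in the native and 4 rose and 1 fell in the sex-converted line, or 3 up and 2 down and 3 up and 3 down with library totals alone. Atf1, a CREB relative, was at 32.6 ± 1.79 CPM in native GV and 171 ± 37.3 CPM in native MII oocytes (SD, n = 2 each) and changed by 2.39 and 3.05. Creb1 itself had log2 fold changes of 0.49 and 0.42 and did not pass (adjusted p = 0.281 and 0.353, edgeR). Among 19 genes at the CDK1 switch below PKA, 9 rose and 7 fell in each line, or 3 up and 10 down and 3 up and 9 down with library totals alone. Ccnb1, the cyclin that CDK1 needs, rose from 363 ± 8.45 CPM in native GV to 1738 ± 16.1 CPM in native MII oocytes (SD, n = 2 each), with log2 fold changes of 2.26 and 2.20. Wee2, the oocyte kinase that PKA activates against CDK1, changed by 1.96 and 2.18. The phosphatase gene Cdc25a fell, with -3.63 and -3.36. Cdk1 mRNA fell from 95.5 ± 0.686 CPM in native GV to 3.27 ± 3.48 CPM in native MII oocytes (SD, n = 2 each), with log2 fold changes of -4.82 and -4.93. The native value was -4.08 without native MII replicate 2 and -6.88 without replicate 1, and the sex-converted value was -4.17 without sex-converted MII replicate 2 and -6.44 without replicate 1.

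For 1 gene of each role, the genes nearest in pattern were found by the root mean square difference of centred log2(CPM + 0.5) over the 8 libraries. For Gpr3 these were Arf3 (0.0759), Xpc (0.0761) and Crtc3 (0.0857), beside 0.869 for the median of 7309 genes. Crtc3, a coactivator of CREB, is also on the wider lists. For Prkaca they were Gle1 (0.0337), H3f3b (0.0381) and Ppm1b (0.0660), beside 1.09 for the median gene. Gle1 had mean levels of 208 CPM in native GV and 1145 CPM in native MII oocytes. For Pde3a they were Srsf6 (0.0814), Hps5 (0.0818) and Clptm1l (0.0913), beside 0.720. For Adcy3, with its few reads, they were Slc11a2 (0.126), Tpra1 (0.127) and Dgat2 (0.136), beside 0.773. All 8 libraries share the stage difference, so nearness reflects mainly how far a gene moved between stages.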

How the data were processed

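The deposited values are counts of reads per gene, made by the authors in 1 table of 55385 genes. Per the submitters' processing notes, Trimmomatic 0.38, HISAT2 2.1.0, featureCounts 2.0.0, DESeq2 1.30.1 and mm10 were used. Per the labels, the directional poly(A) libraries had 13 PCR cycles and single reads of 75 bases. How counting used strand and multiply matched reads, and with which annotation, was not stated in the sources used here.

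Gene names, exon lengths and transcript ends came from GENCODE M21 on GRCm38, which had 55144 of the identifiers, and promoters from RefSeq. Groups were taken from the sample titles. The test was that of edgeR 4.0.16 under R 4.3.3 (TMM, filterByExpr at a minimum count of 10, glmQLFit and glmQLFTest, two-sided), with all 8 libraries in 1 fit, 1 coefficient per group and 4 residual degrees of freedom. Calls need an adjusted p (Benjamini-Hochberg, over 14929 genes) under 0.05. The biological coefficient of variation common to all genes was 0.243. Each standard error is the size of the log2 fold change divided by the root of F, and 95% intervals use the t distribution on the fit's degrees of freedom. The procedure was also run on simulated counts in which a small part of the genes changed, as many up as down. The real stage change is far wider, so that run does not test the scaling between stages. Alternatives were RLE factors, library totals alone, no filter, a mean of 50 reads, DESeq2 1.42.0, a replicate block, only the groups compared, each library left out, and other lengths; the length of the longest principal transcript was added after seeing the data.

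The 10 genes and the lists were chosen with earlier results of these data known. All 10 are named, and from each wider list up to 3 called genes in each direction of the native comparison with the largest change were eligible, given 10 CPM or more in the higher group on average, with the receptor, cyclase, phosphodiesterase and kinase named for nearest patterns. Gnas, Pkig, Creb1 and Gpr6 were added for their role after their values were seen.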

Additional observations from a re-analysis of the deposited data

How the results depend on the processing

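Of 298 values of the 10 genes from GV to MII under alternatives, 276 kept their side of the threshold and, where called, their direction. A further 17 lost the call, 2 gained it, and 3 changed sign and were no longer called. Part of the 298 come from fits without a library of the other line, which keep every library compared and so tell less of stability. The 437 values between lines and for the interaction were not called as reported or in any alternative, and tell little of stability. With library totals alone, Prkar1a was at -0.13 in the native and -0.023 in the sex-converted line and Pde3a at -0.064 in the sex-converted line on the log2 scale. The TMM scale assumes that most genes balance; the cause was not tested. Among all 735 values, of those called in neither fit, 56 changed sign, at most to an absolute value of 0.353. The number of genes called between the lines at GV, 2, was 13 with no filter, 1 with only the groups compared, and 1 to 3 with a library left out. The number at MII, 2, was 34 with no filter, 1 with only the groups compared, 0 with library totals alone, a mean of 50 reads or the replicate block, and 0 to 3 with a library left out. With no filter, 1 wider gene was called between the lines at MII and 3 genes in all in the interaction, against 0 in each. Labels do not say that replicate numbers pair the libraries, and the deviations of same-numbered libraries correlated at -0.443 to 0.171. With the number as a replicate block, 6 of the 10 genes were called in the native line (Adcy9 was lost, adjusted p = 0.0750, edgeR) and 7 in the sex-converted line, 71 and 69 wider genes, and 9288 and 9350 genes in all. Gpr12 had 17 to 36 and Adcy3 40 to 69 reads per library; the part of depth in their missing calls was not tested.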
